A study of Mus musculus with 35 samples.

Results

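Liver zonation markers are genes whose hepatocyte expression depends on where the cell sits between the portal vein and the central vein. The set described here was chosen by symbol and has 9 genes: 6 pericentral (Glul, Oat, Tbx3, Slc1a2, Rhbg and Axin2) and 3 periportal (Etnppl, Gls2 and Sds). Of these 9, 7 were measured among the 18193 genes of the arrays. Gls2 and Sds have no probe set in the platform table used to name genes and are not analysed here, so the periportal side rests on Etnppl, set beside a separate list of other periportal genes. Each gene is read from 1 probe set, the one with the highest mean over all arrays among those assigned to that gene alone. No comparison entered that choice of probe set. The members themselves were chosen with earlier results of these data known. Shares of all genes set beside their counts are therefore description.

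Liver RNA of male CB6F1 hybrid mice was hybridised to Affymetrix mouse arrays, 35 in all, in 14 groups. Young mice were 5 to 6 months old and old mice 25 to 27 months old; each age came from its own supplier, so effects of age and supplier cannot be told apart. At each age 1 group was untreated (0 h, 3 arrays), 3 groups had 70% of the liver mass removed (partial hepatectomy, PH) and were sampled at 24, 38 and 48 h (3 arrays each), and 3 groups had sham surgery, in which the liver was handled but not resected, at the same times. The sham groups have 2 arrays each, except the young 38 h sham, which has 1. The operated mice were anaesthetised with injected avertin and inhaled isoflurane. The labels do not say whether replicates are separate mice, so the p-values measure the spread between these samples. Values are log2 RMA signals, on which a difference of 1 is a 2-fold change. A gene "rose" or "fell" where limma's moderated test gave a Benjamini-Hochberg adjusted p under 0.05 over the 18193 genes. Errors of differences are standard errors of that fit.

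In the liver lobule blood runs from the portal triad to the central vein. Wnt ligands and R-spondins made around the central vein keep beta-catenin active in the neighbouring hepatocytes, which carry the pericentral programme. Ammonia that escapes the urea cycle of the periportal hepatocytes is captured there as glutamine. The pericentral members divide into ammonia and glutamate handling and Wnt signalling. Glul is glutamine synthetase, Oat is the mitochondrial ornithine aminotransferase that yields glutamate, Slc1a2 is a glutamate transporter of the plasma membrane and Rhbg is an ammonia channel. Tbx3 is a T-box transcription factor and Axin2 a scaffold of the beta-catenin destruction complex that is itself induced by Wnt signalling. Of the periportal members, Etnppl degrades phosphoethanolamine, Gls2 is the liver-type glutaminase and Sds is serine dehydratase.

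Promoter sequences are shown for Glul and Slc1a2, the pair of members whose group means followed each other most closely (Pearson r = 0.93 over 14 groups). RefSeq windows from 250 bases before to 50 bases after a gene start (build GRCm38.p6) were given for 5 of the 7 measured members, with 6 windows in all. They were searched on both strands for the letters CTTTGAA and CTTTGAT, a form of the TCF/LEF motif bound by the partners of beta-catenin. These letters were found in 1 of the 6 windows, that of Slc1a2, against 8.65% of all 32851 windows. The 100 bases printed lie directly before the start for Glul (chr1:153899829-153899928, plus strand), and from -250 to -151 for Slc1a2 (chr2:102706188-102706287, plus strand). Capitals mark the match, which reads CTTTGAT on the minus strand and begins at -207.
Glul: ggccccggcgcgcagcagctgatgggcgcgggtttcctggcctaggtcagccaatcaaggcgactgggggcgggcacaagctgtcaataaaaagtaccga
Slc1a2: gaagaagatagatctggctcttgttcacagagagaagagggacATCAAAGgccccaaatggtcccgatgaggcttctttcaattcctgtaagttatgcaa
The match describes the letters of this window, and the windows without one say nothing about binding of the factor.

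Arrays carry no read depth, and the number of arrays limits the precision. The pair of old PH arrays ranked lowest by median correlation with their own group over all genes is called the arrays standing apart. They are old PH 38 h replicate 3 (0.946) and old PH 24 h replicate 1 (0.965). The other old PH arrays at 24 and 38 h were at 0.969 to 0.980, so replicate 1 at 24 h was close to them. All other arrays with a value were at 0.988 or above. The mean level of 6 measured hepatocyte markers lay between 14.23 and 14.42 on every array, with none called in PH against sham; 5 of the 6 are among the brightest genes, at the top of the signal range, so this mean says little about the amount of hepatocyte RNA. The less bright Hnf4a was lower against 0 h in young PH at each time (-0.33, -0.48 and -0.37, each ± 0.08) and in old PH at 24 h (-0.22 ± 0.08, adjusted p = 0.0469). Zonation values that rest on the arrays standing apart are given with and without them.

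The 7 measured genes had their lowest group mean in the same place, the old livers 24 h after PH. The difference between the highest and the lowest of the 14 group means was 4.24 for Etnppl, larger than that of 99.8% of genes, and 2.31 for Tbx3 (98.3%). It was 1.64 for Oat (94.6%), 1.43 for Slc1a2 (92.3%), 1.27 for Rhbg (89.2%) and 1.21 for Glul (87.9%). Axin2 moved least, with a difference of 0.47, larger than that of 36.1% of genes. The highest group mean was that of the old 24 h shams for Glul, Tbx3, Slc1a2, Rhbg and Axin2, that of young PH 24 h for Oat and that of the young untreated livers for Etnppl.

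**Figure D1:**
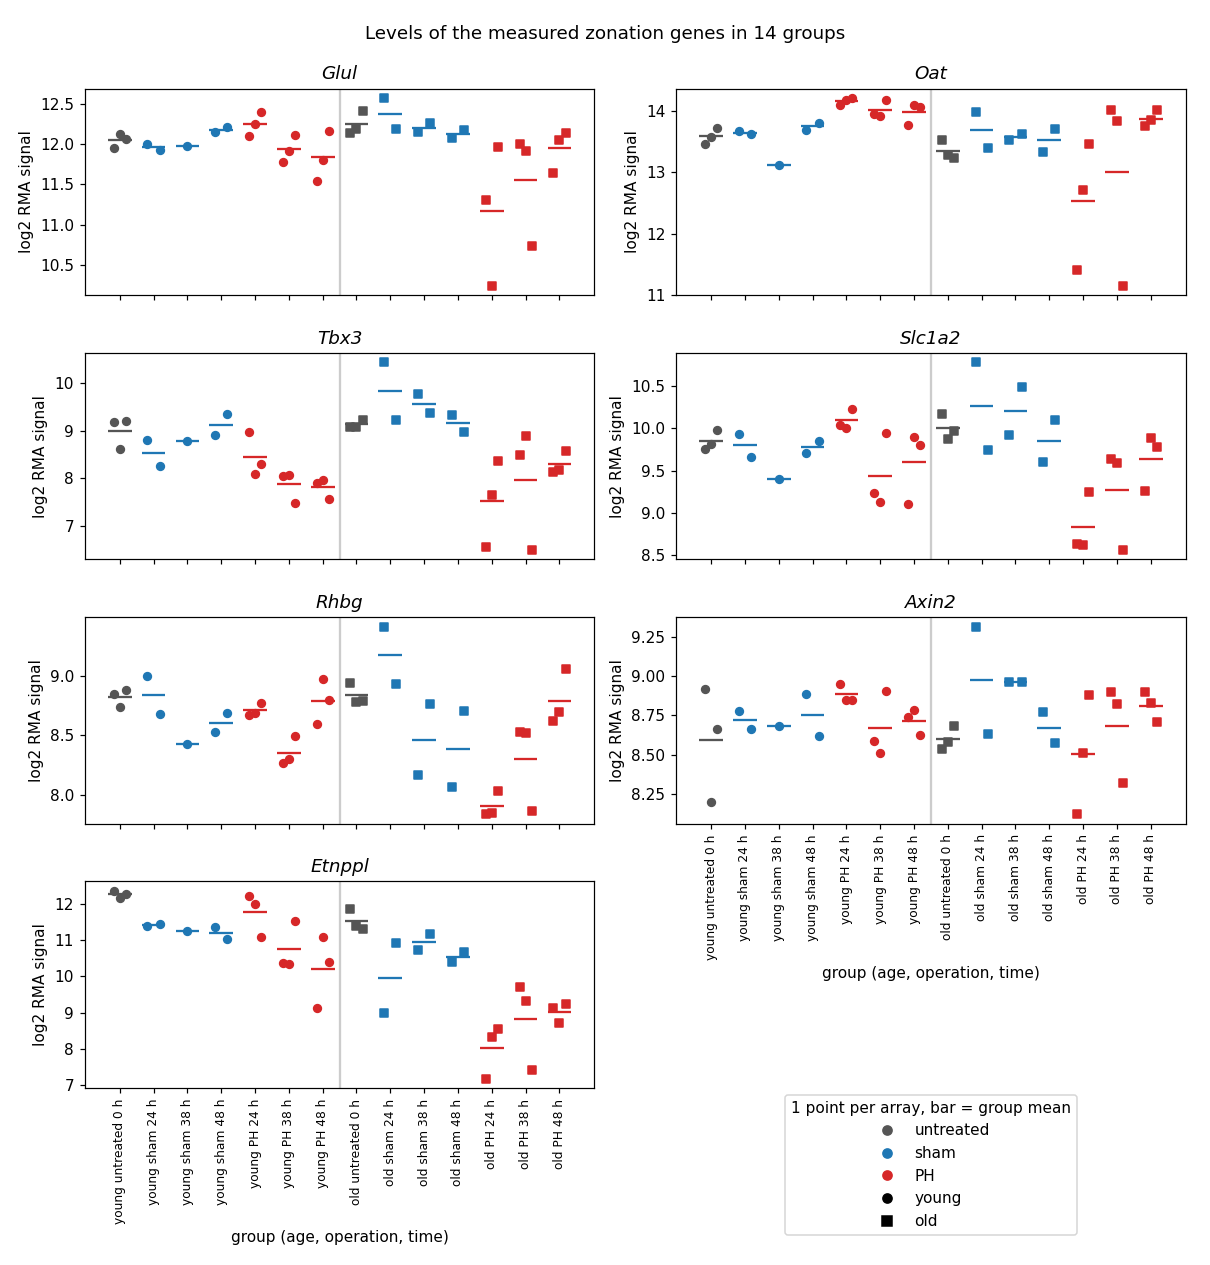
Log2 RMA signal of the 7 measured zonation genes (vertical axes) on each of 35 arrays, by group (horizontal axis); bars are group means, circles young and squares old livers, grey untreated, blue sham and red PH. In old livers 2 of the 3 PH arrays at 24 h and 1 array at 38 h lie low for Glul, Tbx3, Slc1a2 and Rhbg; the third at 24 h lies low for Rhbg, and Etnppl is at 9.72 or below on all 9 old PH arrays.

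PH was compared with sham of the same age and time to separate the loss of liver mass from the operation. In old livers at 24 h, 4 of the 6 pericentral genes fell (Tbx3, Slc1a2, Rhbg and Glul) and so did periportal Etnppl, 5 of 7 members against 11.3% of all genes called and 3.80% called lower. The pericentral median difference was -1.24, where the median of all genes was -0.01. In bulk tissue, fewer cells of a type and less RNA per cell cannot be told apart.

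Glutamine synthetase, Glul, read 11.31, 10.24 and 11.96 in the old livers 24 h after PH and 12.57 and 12.18 in their shams. Each PH array was below both shams, and replicate 2 lay farthest down. The difference was -1.21 ± 0.33, a 2.31-fold fall (adjusted p = 0.0212). The call was lost without sham replicate 1 (-1.01, adjusted p = 0.168), without sham replicate 2 (-1.40, 0.0657) and without PH replicate 2 (-0.74, 0.101), while without the arrays standing apart the difference was -1.28 (0.00748).

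Slc1a2, the glutamate transporter, read 8.63, 8.61 and 9.25 after PH and 10.78 and 9.74 in the shams. The groups did not overlap, and the upper sham array stood well above the other. Slc1a2 fell by 1.43 ± 0.32, or 2.70-fold (adjusted p = 0.00731). Without sham replicate 1 the difference was -0.91 and did not pass (adjusted p = 0.167), and without the arrays standing apart it was -1.33 (0.00667).

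Rhbg, the ammonia channel, had the tightest PH arrays, at 7.84, 7.85 and 8.03, against 9.41 and 8.93 in the shams. Both shams stood clear of the highest PH array. Its difference of -1.27 ± 0.20, a 2.40-fold fall, gave an adjusted p of 0.00077. Rhbg kept its call when any 1 array was left out and without the arrays standing apart (-1.23, adjusted p = 0.000485).

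Tbx3, the transcription factor, read 6.55, 7.65 and 8.36 after PH and 10.44 and 9.23 in the shams. The groups did not overlap, although both spread by more than 1. Tbx3 fell by 2.31 ± 0.50, or 4.97-fold (adjusted p = 0.00552), the largest difference among the pericentral members here. Without sham replicate 1 it was -1.71 (adjusted p = 0.113), and without the arrays standing apart -1.83 (0.00125).

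Ornithine aminotransferase, Oat, did not pass: its PH arrays read 11.40, 12.72 and 13.45 and its shams 13.98 and 13.39, a difference of -1.16 ± 0.52 (adjusted p = 0.143). The highest PH array lay above the lower sham, so the groups overlapped. Axin2 read 8.12, 8.51 and 8.88 after PH and 9.31 and 8.63 in the shams, with a difference of -0.47 ± 0.21 (adjusted p = 0.14). Its groups overlapped as well. Leaving out PH replicate 3, the highest of its group for both genes, gave -1.62 for Oat (adjusted p = 0.0312) and -0.66 for Axin2 (0.0298), and leaving out the arrays standing apart gave -0.60 for Oat (0.0418).

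Etnppl, the periportal member, read 7.18, 8.34 and 8.55 in old livers at 24 h after PH and 8.98 and 10.93 in the shams. The PH arrays were all lower, and the shams were far from each other. Etnppl fell by 1.93 ± 0.59, or 3.82-fold (adjusted p = 0.0369). The call was lost without sham replicate 2 (-0.96, adjusted p = 0.472), without PH replicate 1 (-1.51, 0.175) and without PH replicate 2 (-2.09, 0.055), as well as without the arrays standing apart (-1.51, 0.0597).

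The old 24 h shams themselves differed from each other. Replicate 1 was the highest of all 35 arrays for Glul, Tbx3, Slc1a2, Rhbg and Axin2, and the mean of its 6 pericentral genes was 0.72 above the old untreated livers. Replicate 2 was at -0.01 by the same measure. Etnppl went the other way, at -2.54 on replicate 1 and -0.59 on replicate 2. Leaving out replicate 1 left 2 of the 7 members called at 24 h (Rhbg and Etnppl), and leaving out the arrays standing apart as well left 3 (Tbx3, Rhbg and Etnppl). When the test was fitted on only these 5 arrays, none of the 5 calls remained (adjusted p from 0.146 for Rhbg to 0.383 for Glul), and 1 of all genes passed in place of 2058.

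In young livers at 24 h after PH none of the 7 members passed, where 0.709% of all genes did. Glul read 12.11, 12.25 and 12.40 against shams of 12.01 and 11.92, a difference of 0.29 ± 0.33 (95% interval -0.39 to 0.97). Slc1a2 read 10.04, 10.00 and 10.23 against 9.94 and 9.67, a difference of 0.29 ± 0.32 (-0.37 to 0.96). For both genes each PH array was above both shams. Oat, at 14.09, 14.18 and 14.20 against 13.67 and 13.61, also lay wholly above its shams, with a difference of 0.52 ± 0.52 (-0.55 to 1.59). Tbx3 read 8.98, 8.09 and 8.31 against 8.80 and 8.26 and overlapped (-0.07 ± 0.50). Rhbg (-0.13 ± 0.20), Axin2 (0.16 ± 0.21) and Etnppl (0.35 ± 0.59) had intervals that included 0, and the pericentral median was 0.23.

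At 38 h after PH, 1 of the 7 members was called in old livers (Etnppl), beside 4.79% of all genes, 2.49% of them lower, and none in young livers, beside 6.06%. Etnppl read 9.72, 9.32 and 7.41 in old livers after PH and 10.72 and 11.18 in their shams. The groups did not overlap, and replicate 3 was the lowest. Etnppl fell by 2.13 ± 0.59, or 4.39-fold (adjusted p = 0.0387). Without replicate 3 it was -1.43 and did not pass (adjusted p = 0.178), nor did it without either sham (-2.36, 0.12 and -1.91, 0.273).

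The pericentral genes at 38 h in old livers turned on replicate 3. On that array the mean of the 6 genes against the old untreated livers was -1.51, while replicates 1 and 2 were at -0.10 each. Oat read 11.15 on it and 14.01 and 13.83 on the others, against shams of 13.52 and 13.62. Tbx3 was lowest of all 35 arrays on it, as was Slc1a2 at 8.56. The 38 h differences were -1.61 ± 0.50 for Tbx3 (adjusted p = 0.0611), -0.94 ± 0.32 for Slc1a2 (0.089), -0.65 ± 0.33 for Glul, -0.58 ± 0.52 for Oat, -0.28 ± 0.21 for Axin2 and -0.16 ± 0.20 for Rhbg. Leaving replicate 3 out moved the pericentral median from -0.61 to -0.17 and turned Oat to 0.35 and Rhbg to 0.057.

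In young livers at 38 h, where the sham is 1 array, Tbx3 read 8.05, 8.08 and 7.49 after PH against 8.79 (-0.92 ± 0.63). Oat went the other way, at 13.94, 13.92 and 14.17 against 13.11 (0.90 ± 0.66). For both genes the PH arrays lay to 1 side of the sham, and neither passed (adjusted p = 0.435 and 0.465). Glul, Slc1a2, Rhbg and Axin2 differed by between -0.07 and 0.03, and Etnppl by -0.51 ± 0.75.

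At 48 h none of the 7 members passed in either age, beside 18.4% of all genes in young and 15.0% in old livers. Tbx3 in young livers read 7.91, 7.97 and 7.58 after PH and 8.91 and 9.35 after sham, with no overlap and a difference of -1.31 ± 0.50 (adjusted p = 0.0678). In old livers it read 8.13, 8.19 and 8.57 against 9.34 and 8.98, again below both shams (-0.87 ± 0.50, adjusted p = 0.238). Etnppl in old livers read 9.13, 8.71 and 9.23 against 10.39 and 10.67, likewise without overlap (-1.51 ± 0.59, adjusted p = 0.0868). In young livers it read 9.13, 11.10 and 10.39 against 11.37 and 11.04, where 1 PH array lay above a sham (-1.003 ± 0.59, adjusted p = 0.25). The other 5 genes differed by between -0.34 and 0.23 in young livers and by between -0.21 and 0.40 in old livers. The old pericentral median at 48 h was -0.02, against -1.24 at 24 h.

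**Figure D2:**
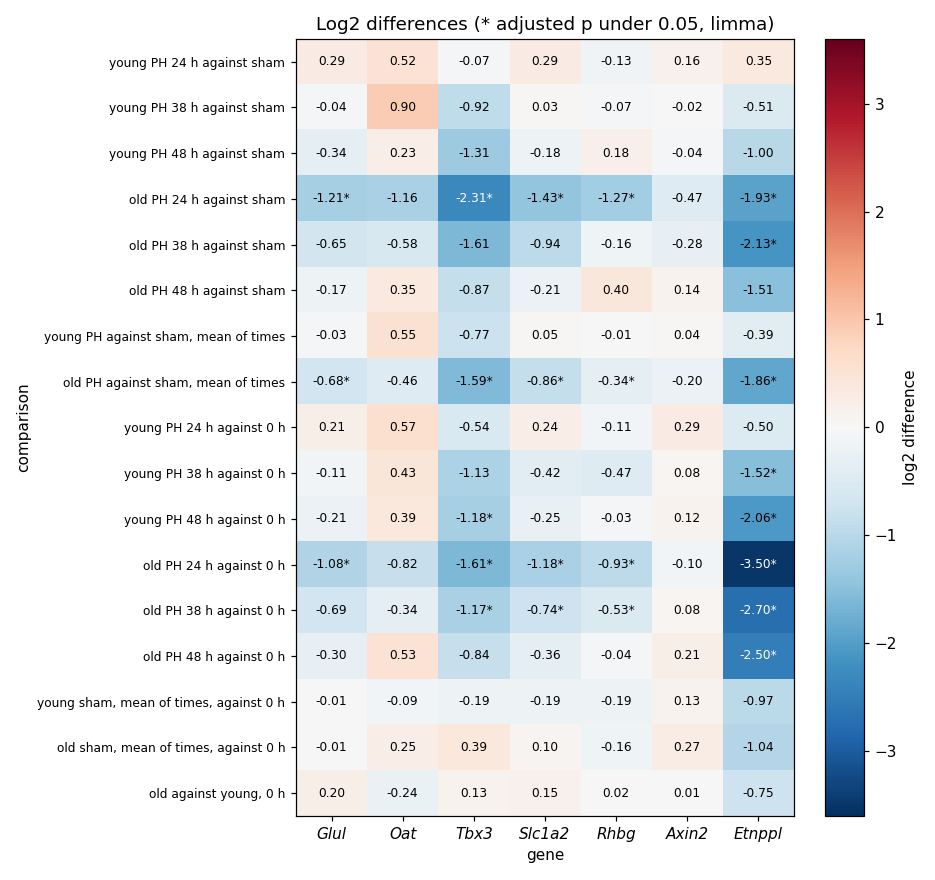
Log2 differences of the 7 measured zonation genes (horizontal axis) in 17 comparisons (vertical axis), coloured from blue (lower) to red (higher); an asterisk marks an adjusted p under 0.05 by limma. The comparisons of old PH hold most of the asterisks, and Etnppl has the most negative values, down to -3.50.

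Averaged over the 3 times with equal weight, old PH livers had 5 of 7 members called lower, beside 29.8% of all genes called and 13.4% called lower. Etnppl fell by 1.86 ± 0.34 (3.62-fold, adjusted p = 0.000266), Tbx3 by 1.59 ± 0.29 (3.02-fold, 0.000206) and Slc1a2 by 0.86 ± 0.19 (1.82-fold, 0.00121). These 3 calls held under each of 27 alternatives tried. Glul fell by 0.68 ± 0.19 (1.60-fold, adjusted p = 0.00906), and lost its call in 1 of the 27, the fit on the compared arrays alone (0.0899). Rhbg fell by 0.34 ± 0.12 (adjusted p = 0.029) and lost the call in 10, among them without the arrays standing apart (-0.26, 0.0821). Dropping a single old sham array ended it too: the first replicate at 24 h (-0.26, adjusted p = 0.126), the second at 38 h (-0.24, 0.147) or the second at 48 h (-0.23, 0.159). So did dropping old PH 38 h replicate 3 (-0.27, 0.0593), or PH 48 h replicate 1 (-0.31, 0.0576) or 2 (-0.33, 0.0509). Oat (-0.46 ± 0.30) and Axin2 (-0.20 ± 0.12) did not pass. Without the arrays standing apart Oat was at 0.033 and Tbx3 at -1.19.

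In young livers the same average called none of the 7, beside 28.1% of all genes. The pericentral members split: Tbx3 was at -0.77 ± 0.31 (adjusted p = 0.0699) and Oat at 0.55 ± 0.33 (0.211), while Glul, Slc1a2, Rhbg and Axin2 lay between -0.03 and 0.05. Fitted on the young PH and sham arrays alone, with their smaller spread, Oat passed (0.55 ± 0.07, adjusted p = 8.32e-05) and so did Tbx3 (-0.77 ± 0.17, 0.00342). Etnppl was at -0.39 ± 0.38 (95% interval -1.16 to 0.39).

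PH was also compared with the untreated livers of the same age, which gives the course from the intact organ and shares the 0 h arrays between times. In old livers Etnppl read 11.85, 11.40 and 11.31 on the untreated arrays and was lower on each of the 9 PH arrays. It fell by 3.50 ± 0.53 at 24 h (11.3-fold, adjusted p = 6.93e-05), by 2.70 ± 0.53 at 38 h (6.51-fold, 0.000482) and by 2.50 ± 0.53 at 48 h (5.64-fold, 0.00178). In young livers Etnppl read 12.36, 12.16 and 12.27 on the untreated arrays. There it differed by -0.50 ± 0.53 at 24 h (adjusted p = 0.569), fell by 1.52 ± 0.53 at 38 h (0.0307) and fell by 2.06 ± 0.53 at 48 h (0.005). The 48 h call in young livers was lost without PH replicate 1 (-1.52, adjusted p = 0.0516), and that at 38 h was lost without PH replicate 1 (-1.34, 0.103), PH replicate 2 (-1.32, 0.118) or any of the untreated arrays. By group means Etnppl was thus lowest at 24 h in old and at 48 h in young livers.

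Against the untreated livers 5 of 7 members were called lower in old PH at 24 h, beside 24.3% of all genes called and 12.6% called lower. Glul (-1.08 ± 0.29), Tbx3 (-1.61 ± 0.44), Slc1a2 (-1.18 ± 0.29) and Rhbg (-0.93 ± 0.18, adjusted p = 0.000734) fell with Etnppl. The calls of Slc1a2, Rhbg and Etnppl held in each of 17 alternatives, that of Glul was lost without PH replicate 2 (-0.61, adjusted p = 0.0925) and that of Tbx3 without PH replicate 1 (-1.13, 0.0939). Both were also lost in the fit on the compared arrays alone (adjusted p = 0.169 and 0.0811). At 38 h 4 of 7 were called lower (38.4% of all genes called, 16.6% lower), and those of Tbx3 (-1.17 ± 0.44), Slc1a2 (-0.74 ± 0.29) and Rhbg (-0.53 ± 0.18) ended without PH replicate 3 (-0.44, -0.39 and -0.31). They were lost in 10, 11 and 7 of 17 alternatives; Tbx3 and Slc1a2 lost theirs without any 1 of the untreated arrays and Rhbg without the first (-0.48, adjusted p = 0.083). Without the arrays standing apart Oat rose at 38 h (0.58 ± 0.17, adjusted p = 0.0122), where with them it was at -0.34 ± 0.46. At 48 h Etnppl was the member called in old livers (16.9% of all genes called, 8.62% lower), and the pericentral median was -0.17, against -1.003 at 24 h.

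In young livers none of 7 was called against 0 h at 24 h (17.4% of all genes), 1 at 38 h (Etnppl; 31.7%, 16.5% lower) and 2 at 48 h (Etnppl and Tbx3; 27.9%, 14.5% lower). Tbx3 read 9.19, 8.62 and 9.20 in untreated young livers, above each of the 6 PH arrays at 38 and 48 h. It differed by -1.13 ± 0.44 at 38 h (adjusted p = 0.0548) and fell by 1.18 ± 0.44 at 48 h (0.0487). That call was lost in 10 of 15 alternatives, among them leaving out any PH array of the group (adjusted p = 0.0696 to 0.147).

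The operation without resection was compared with no operation, over the sham times. None of the 7 members passed in young (33.6% of all genes called) or old livers (28.4%). Etnppl came nearest: young shams read between 11.04 and 11.45, below all 3 young untreated arrays, with a difference of -0.97 ± 0.48 (adjusted p = 0.126). Old shams read between 8.98 and 11.18, below the 3 old untreated arrays too, with a difference of -1.04 ± 0.46 (adjusted p = 0.0921). With the first old 24 h sham left out it was -0.72 (adjusted p = 0.256), and with the second left out -1.37 (0.0273). The pericentral median was -0.14 in young and 0.18 in old shams, with the 6 genes between -0.19 and 0.39.

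Untreated old and young livers did not differ past the threshold in any of the 7 members (0.236% of all genes did). Glul read 12.14, 12.19 and 12.41 in old and 11.96, 12.13 and 12.06 in young livers (0.20 ± 0.29, 95% interval -0.41 to 0.81), and their ranges did not overlap. The other 5 pericentral genes differed by between -0.24 and 0.15. Etnppl read lower on each old array than on each young one (-0.75 ± 0.53, adjusted p = 0.686). Its groups did not overlap either, and the 95% interval ran from -1.84 to 0.35.

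The age difference of the response, old PH minus sham less young PH minus sham, was tested directly. By limma no gene passed at 24 h after adjustment, at 48 h or over the mean of times, and 16 did at 38 h (0.0879%), none of them a member. At 24 h the members' differences were -2.28 ± 0.84 for Etnppl, -2.24 ± 0.70 for Tbx3, -1.73 ± 0.46 for Slc1a2, -1.68 ± 0.73 for Oat, -1.50 ± 0.47 for Glul, -1.13 ± 0.28 for Rhbg and -0.63 ± 0.29 for Axin2. Their adjusted p-values ran from 0.326 to 0.531. At an unadjusted p under 0.05 all 7 members were lower in this contrast, where 9.22% of all genes (1677) passed and 4.20% were lower; this count was 5 to 7 over 23 alternatives. With limma's array weights, which give outlying arrays less say, the adjusted test called 1987 of 18193 genes and all 7 members. The members' adjusted p-values then ran from 0.000149 for Glul to 0.0416 for Axin2. The estimation of these weights stopped before converging, and no other alternative called a member in this contrast. Over the mean of times 4 of 7 members passed unadjusted, all lower (Glul, Oat, Slc1a2 and Etnppl), beside 10.3% of all genes (5.38% lower), and at 48 h the 6 pericentral differences lay between -0.03 and 0.44.

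The members did not move as 1 block across arrays. On old PH 24 h replicates 1 and 2 the pericentral mean against the old untreated livers was -1.38 and -1.10, and on replicate 3 it was -0.37. Etnppl on the same arrays was at -4.34, -3.18 and -2.97. On the 3 old PH arrays at 48 h Etnppl lay between -2.81 and -2.29 while the pericentral mean lay between -0.31 and 0.02. Over the 14 group means, which share the array normalisation and the untreated arrays, Glul and Tbx3 correlated at 0.82, Tbx3 and Slc1a2 at 0.82 and Glul and Etnppl at 0.71. Oat and Tbx3 (0.17) and Axin2 and Etnppl (0.13) were the loosest pairs.

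**Figure D3:**
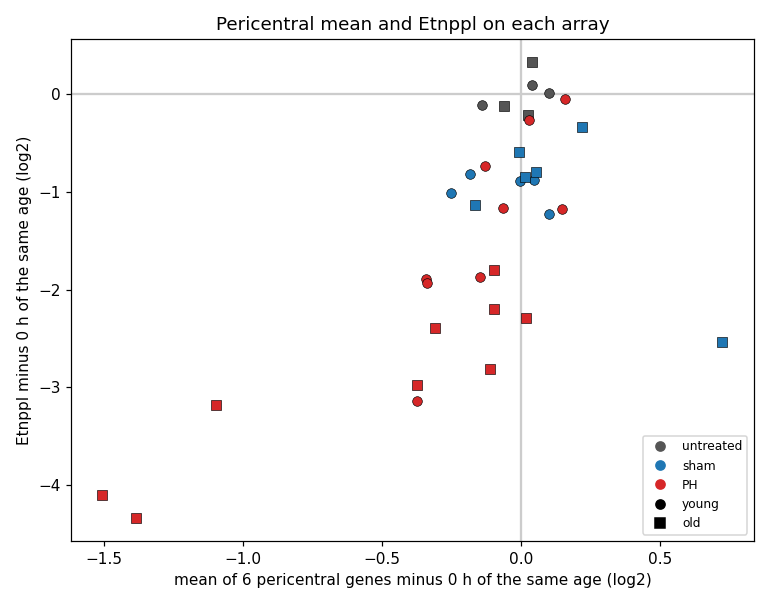
Mean of the 6 pericentral genes (horizontal axis) and Etnppl (vertical axis) on each of 35 arrays, both as log2 difference from the mean of the untreated livers of the same age; circles are young, squares old, grey untreated, blue sham and red PH. Old PH arrays at 24 h (replicates 1 and 2) and 38 h (replicate 3) lie at the lower left, and 1 old 24 h sham array lies to the right at 0.72 and -2.54.

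Further probe sets of a member were read in old PH against sham over the times, where the bright ones had the same sign and sizes that differed. The second Glul probe set gave -0.68, as the first did. The second bright Tbx3 set gave -1.10 (r = 0.96 with the one used) and a second bright Slc1a2 set -1.57 (r = 0.90), against -1.59 and -0.86 for the sets used. Another Slc1a2 set gave -0.43, the 3 dim Tbx3 sets lay between -0.23 and -0.01 and the 2 remaining Slc1a2 sets between -0.07 and -0.02. In young livers, where no member was called, the second bright sets of Glul (0.11 against -0.03) and Slc1a2 (-0.19 against 0.05) had the opposite sign to the sets used. In old livers the dim sets of Axin2 (-0.09) and Etnppl (-0.61) had the sign of the sets used, with smaller sizes.

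The members were set beside other genes of both zones, in lists with no gene in common with them. Of 20 other pericentral genes 17 were measured. In old livers over the mean of times 10 of the 17 were called lower and none higher, with a median of -0.57 against -0.02 for all genes; in young livers 5 were lower and 2 higher (median -0.23). Over all genes 29.8% were called in old livers, 13.4% lower, and 28.1% in young. The counts over the mean of times in the lists below stand beside the same shares. The cytochrome P450 genes led: Cyp7a1, the rate-limiting enzyme of bile acid synthesis, fell by 1.89 ± 0.42 in old livers and was at -0.89 ± 0.46 in young, and Cyp2c54 fell by 1.46 ± 0.28 and by 1.07 ± 0.31. Cyp1a2, a drug-metabolising P450, fell by 1.06 ± 0.23 in old livers and was at -0.23 ± 0.25 in young, and Slc13a3, a dicarboxylate transporter, fell by 1.05 ± 0.39 and was at 0.18 ± 0.43. At 24 h in old livers 9 of 17 were lower (median -1.03), and at 38 h 2 were, beside 3.80% and 2.49% of all genes called lower. No gene of either zone list passed in the age difference of the response over the mean of times.

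Of 20 other periportal genes 19 were measured. In old livers over the mean of times 9 were lower and 1 higher (median -0.44), and in young livers 4 were lower and 1 higher (median 0.07), a count of 5 of 19 near the share of all genes called. Hal, the histidine-degrading enzyme, fell by 1.47 ± 0.21 in old and 0.85 ± 0.23 in young livers. Cyp2f2 fell by 1.38 ± 0.20 in old livers and was at -0.42 ± 0.22 in young, and Pigr, the receptor that carries immunoglobulin A, fell in both (-0.97 ± 0.19 and -0.73 ± 0.21). Cdh1, E-cadherin, rose in both (0.89 ± 0.28 in old and 1.19 ± 0.31 in young). At 24 h in old livers 2 were lower and 1 higher (median -0.43), beside 11.3% of all genes called and 3.80% called lower. At 38 h 5 were lower (median -0.68), beside 4.79% called and 2.49% called lower. The time courses of the lists were not tested against each other. The list holds urea cycle genes, of which Otc was at -0.98 ± 0.19 and -1.21 ± 0.19 and Asl at -0.43 and -1.28 ± 0.31 at the 2 times. Otc and Asl were named after their values were seen, and the list's other urea cycle genes (Cps1, Ass1 and Arg1) are not given.

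Of 23 genes of glutamine and ammonia handling, a list that holds Glul, Oat, Gls2 and Sds, 18 were measured. Over the mean of times 6 were lower and 1 higher in old livers, and 1 lower and 4 higher in young, where 5 of 18 is again near the share of all genes. Prodh, proline dehydrogenase, fell by 1.66 ± 0.29 in old livers and was at -0.39 ± 0.32 in young, and Aldh4a1, which takes the next step from proline to glutamate, fell by 0.97 ± 0.34 and was at -0.14 ± 0.37. Slc38a2, a neutral amino acid transporter, rose in both ages (0.44 ± 0.12 in old and 0.74 ± 0.13 in young). Slc1a4 rose by 0.89 ± 0.22 in young livers and was at 0.41 ± 0.20 in old.

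Genes of the Wnt pathway that maintains the pericentral programme were read from 4 lists. Of 9 ligands and amplifiers, all measured, 2 rose in each age over the mean of times: Rspo3, an R-spondin of the central vein, by 0.76 ± 0.12 in old and 0.71 ± 0.13 in young livers, and Wnt2, an endothelial Wnt, by 0.49 ± 0.16 and 0.76 ± 0.18. Rspo4 fell in old livers (-0.32 ± 0.12). Counts of 3 of 9 in old and 2 of 9 in young livers are near the 29.8% and 28.1% of all genes called, so they say nothing particular about the ligands. Rspo3 rose in old livers at 24 h too (1.18 ± 0.20, adjusted p = 0.00132), beside 11.3% of all genes called. The other ligands at 24 h are not given, and a relation of Rspo3 to the pericentral genes was not tested.

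Of 14 Wnt receptors and the ligases that remove them, 5 fell and none rose in old livers over the mean of times, and 5 fell and 2 rose in young. Over all genes 29.8% were called in old and 28.1% in young livers, with 13.4% called lower in old livers. The 5 of 14 called in old livers are near the share of all genes called, though above the share called lower. The receptor Fzd7 fell by 0.94 ± 0.10 in old and 0.47 ± 0.11 in young livers, Fzd8 by 0.49 ± 0.09 and 0.62 ± 0.09, and the R-spondin receptor Lgr4 by 0.55 ± 0.07 and 0.47 ± 0.08. The ligase Rnf43 was at -0.73 ± 0.145 in old livers, a fall, and at -0.31 ± 0.16 in young. Of 15 genes of the beta-catenin core 14 were measured, and 3 rose in old livers, among them Gsk3a (0.35 ± 0.10) and Apc (0.24 ± 0.08). In young livers 2 rose and 1, Tcf7l2, fell (-0.35 ± 0.09). Csnk1a1 rose in both ages (0.24 ± 0.08 in old and 0.27 ± 0.09 in young). The 3 of 14 called in each age are below the shares of all genes called.

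Of 14 Wnt feedback and target genes, Axin2 among them, 13 were measured. At 24 h in old livers Lgr5, a pericentral R-spondin receptor (-0.96 ± 0.25), Rnf43, a ligase that removes Frizzled receptors (-1.05 ± 0.25), and Sp5 (-0.93 ± 0.21) fell and Myc rose (1.44 ± 0.35). Axin2 was at -0.47 and Notum, a secreted Wnt deacylase, at -0.98 ± 0.47 (adjusted p = 0.173). These differences are against sham, where 11.3% of all genes were called and 3.80% called lower. Lgr5, Sp5 and Notum were named after their values were seen, and the list's other genes at 24 h are not given. Over the mean of times Ccnd1, cyclin D1, rose by 1.31 ± 0.31 in old and 2.49 ± 0.34 in young livers and Myc by 0.85 ± 0.20 and 0.66 ± 0.22. Znrf3 rose in young livers (0.53 ± 0.12) and was at -0.11 ± 0.11 in old. Rnf43, Lgr5 and Znrf3 also stand in the list of receptors, and were counted in both. Tcf7 and Lef1 are listed here and in the beta-catenin core.

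**Figure D4:**
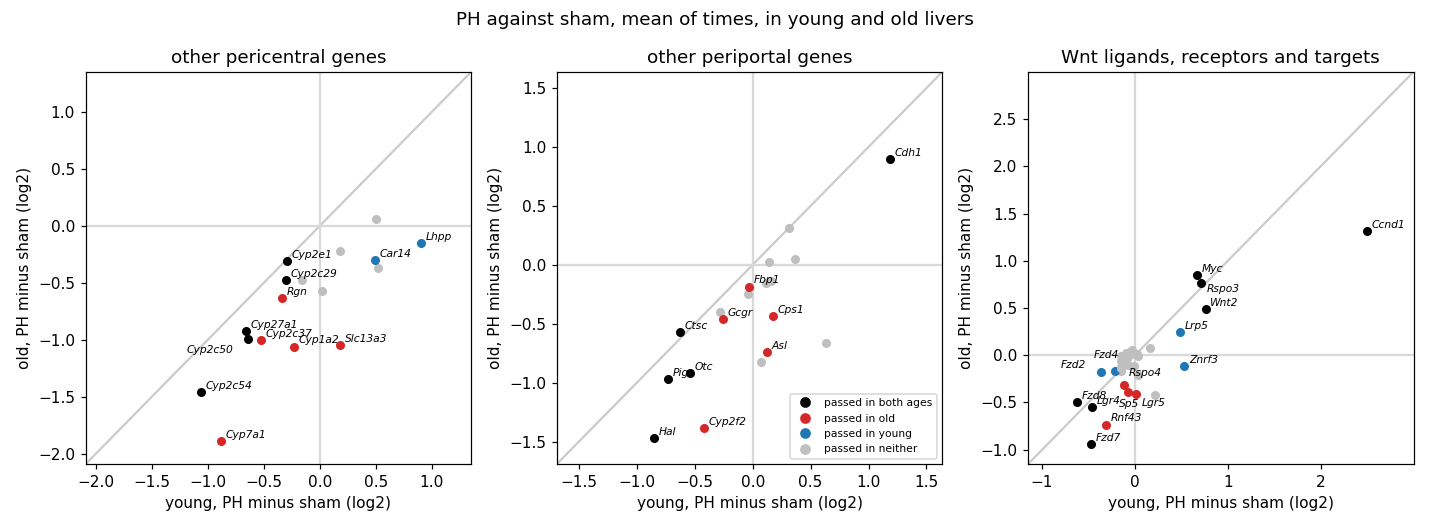
Log2 difference of PH against sham, mean of times, in young (horizontal axes) and old livers (vertical axes) for other pericentral genes, other periportal genes and Wnt ligands, receptors and targets; each point is a gene, coloured by the age in which its adjusted p was under 0.05, and the diagonal marks equal values. Cyp7a1, Hal and Fzd7 are the lowest in old livers in their panels, and Cdh1 and Ccnd1 the highest.

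Some markers of other liver cells moved in the same old PH livers. Of 8 Kupffer and macrophage markers 6 were lower in old PH at 24 h against 0 h (median -1.25), beside 12.6% of all genes called lower. Against sham 1, Clec4f, was lower (-1.15 ± 0.37), beside 3.80% of all genes. The mean level of this list ranged from 8.54 to 9.44 on the PH arrays, 9.77 to 9.85 on the shams and 9.14 to 11.37 on the untreated arrays. Neutrophil markers (5 of 7 measured) ranged from 8.76 to 9.34 on these PH arrays and from 8.20 to 8.37 on the shams, with none called against sham. Against 0 h 2 were higher, S100a8 (2.06 ± 0.75) and S100a9 (1.97 ± 0.69), beside 24.3% of all genes called. Csf3r (0.31 ± 0.12), Mpo (-0.15 ± 0.15) and Elane (0.01 ± 0.16) were not called against 0 h. Among 6 bile duct markers measured Sox9 was higher in old PH at 24 h (1.38 ± 0.29 against sham, adjusted p = 0.00499), and among 5 adipose markers measured Cidec was (4.27 ± 1.07, 0.0134). Over all genes 11.3% were called in this contrast, so 1 call in a list this short says nothing particular about it. Of the other bile duct markers, Krt19 (0.20 ± 0.28), Krt7 (0.28 ± 0.22) and Epcam (0.06 ± 0.09) were not called. The other adipose markers were not called and did not move together. Fabp4 was at 1.71 ± 0.73, Adipoq at -1.67 ± 0.83, Retn at -0.32 ± 0.17 and Lep at -0.19 ± 0.09. The mean level of the bile duct list ranged from 7.25 to 7.57 on the PH arrays and 7.12 to 7.37 on the shams, and that of the adipose list from 7.69 to 8.84 and 6.94 to 8.09. Of 8 endothelial markers 1, Kdr, was called at 24 h (-0.75 ± 0.20), a count near the 11.3% of all genes called. The part of these cell types in the zonation values was not tested.

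Genes whose group means were most like those of the members were found over the 14 groups by Pearson correlation. The mean of the 6 pericentral genes was followed most closely by Aqp9 (r = 0.94), Gulo (0.90), Mtarc2 (0.90), Dnase1l3 (0.90) and Lgals9 (0.90). Glul was followed by Aqp9 (0.95), L3hypdh (0.94), Slco1b2 (0.93), Dnase1l3 (0.93) and Kynu (0.92), and Etnppl by Acsm3 (0.95), Ecsit (0.93), Nrep (0.92), Bcs1l (0.92) and Aspa (0.92). These values describe 14 means from 1 set of jointly normalised arrays.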

How the data were processed

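Per the submitters' processing notes the authors made the expression values with RMA, and the deposited table holds them as log2 signals; the RMA version, and which arrays were normalised together, are not stated. Of the probe sets with 1 gene symbol in the platform table, the one with the highest mean over 35 arrays stood for each of 18193 genes. A model with 1 mean per group was estimated from the 35 arrays together (limma 3.58.1, R 4.3.3; lmFit and eBayes, 21 residual and 3.29 prior degrees of freedom). P-values were adjusted per contrast over all genes (Benjamini-Hochberg, 0.05). The young 38 h sham, a lone array, took its spread from the other groups. Members, lists and tests were chosen with earlier results of these data known. All members are named. From each further list, up to 4 genes past the threshold over the mean of times are named, by size; Otc, Asl, Lgr5, Sp5, Notum and the named markers of other cells were chosen after their values were seen. The script was tested on simulated data. Figures were drawn with matplotlib 3.10.9. Deviations of same-numbered arrays correlated at -0.19 to 0.18, above 0.1 in 8 of 31 pairs and in all pairs of 1 of 12 contrasts (young PH at 24 h against 0 h), so replicate numbers were not used as pairs; in that contrast no member's call changed with the replicate block (3114 genes called in place of 3163).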

Additional observations from a re-analysis of the deposited data

Results flagged for a closer look

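In 4 pericentral genes every young PH array at 24 h lay above the mean of its shams and every old PH array lay below, so the arrays of the ages moved in opposite directions. The share of all genes that meet this rule was not counted, so the 4 genes have no background to be set against. For Glul, glutamine synthetase, the young arrays were 0.14 to 0.44 above and the old arrays between -2.14 and -0.42, and the difference of the responses was -1.50 (adjusted p = 0.444 by limma over all genes). For Oat the difference was -1.68 (adjusted p = 0.531), with young arrays at 0.45 to 0.57 and old arrays from -2.28 to -0.24. For the glutamate transporter Slc1a2 it was -1.73 (adjusted p = 0.346), with young arrays at 0.20 to 0.43 and old arrays from -1.65 to -1.02. For Axin2 it was -0.63 (adjusted p = 0.531), with young arrays at 0.13 to 0.23 and old arrays from -0.85 to -0.09. The old sham mean rests partly on replicate 1, the highest of all 35 arrays for Glul, Slc1a2 and Axin2. Against sham replicate 2 alone, old PH replicate 3 lay above for Oat (13.45 against 13.39) and Axin2 (8.88 against 8.63), so the opposite directions then held for Glul and Slc1a2. The difference itself was tested in each gene and did not pass. No group has 4 or more arrays, so single arrays were not tested as outliers.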

How the results depend on the processing

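The calls of Tbx3, Slc1a2 and Etnppl in old PH against sham over the mean of times, of Slc1a2, Rhbg and Etnppl in old PH at 24 h against 0 h and of Etnppl in old PH at 48 h against 0 h held in every alternative run. Of 2744 single-gene values under alternatives, 2575 kept their direction and side of the threshold. The cause of the changes below was not tested. The added setting without the old PH arrays standing apart and old sham 24 h replicate 1 was chosen after seeing the data.

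With the mean of a gene's probe sets, the pericentral median of the age difference was -1.20 at 24 h, -0.21 at 38 h and -0.40 over the times, Etnppl passed in old PH at 48 h against sham (-1.40) and in old shams against 0 h (-0.94), and 1, 0 and 1 pericentral genes were called in young 38 h, young 48 h and old 38 h PH against 0 h. All probe sets tested, quantile normalization repeated and a trended robust prior each left 0 pericentral genes called in young PH at 48 h against 0 h; quantile normalization also left 0 in old PH at 38 h. Median centring called 2 in young PH at 38 h against 0 h; leaving out the dimmest 40% of genes called 2 there and 1 in old PH at 38 h against sham.

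With array weights, whose estimation stopped before converging, Oat turned to 0.20 in old PH at 38 h against sham and to 0.46 against 0 h. The medians were -0.22 in old PH at 38 h against sham and -0.22 in the age difference at 38 h. Etnppl lost its call in old PH at 38 h against sham (-1.54) and passed at 48 h (-1.59), in young (-0.99) and old shams (-1.01) against 0 h and in the age difference at 24 h (-2.03). Pericentral genes called were 1 in young PH at 38 h, 1 in young and 1 in old PH at 48 h and 2 in young PH over the times, against sham; 1, 3, 0 and 1 in young 24 h, young 38 h, old 38 h and old 48 h against 0 h; and 6 and 1 in the age difference at 24 h and over the times.

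With only the arrays compared, Etnppl lost its call in old PH at 24 h (-1.93) and 38 h (-2.13) against sham and at 38 h against 0 h (-2.70), and passed in old PH at 48 h against sham (-1.51) and in young shams against 0 h (-0.97). Pericentral genes called against sham were 1 in young PH at 24 h, 1 at 48 h and 2 over the times, and 0, 1 and 2 in old PH at 24 h, 48 h and over the times. Against 0 h they were 1, 3 and 2 in young and 2, 0 and 2 in old PH at 24, 38 and 48 h.

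With pooled shams, 2 pericentral genes were called in old PH at 38 h and 1 at 48 h, where Etnppl passed (-1.46). With 0 h as the control, the medians of the age difference were -1.18 at 24 h and -0.19 at 38 h. With the replicate block, Etnppl lost its call in old PH at 38 h against sham (-2.10), 0 pericentral genes were called in young PH at 48 h against 0 h, and Slc1a2 lost its call in old PH at 38 h against 0 h; genes called in old PH at 24 h against sham were 1970 in place of 2058, and in the age difference at 38 h 1 in place of 16. No other member's call changed with the block.

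Without the old PH arrays standing apart, Oat was 0.35 in old PH at 38 h against sham, 0.033 over the times and 0.58 at 38 h against 0 h, Rhbg was 0.057 at 38 h against sham and Axin2 0.10 at 24 h against 0 h. The medians were -0.17 at 38 h against sham, -0.30 at 38 h against 0 h (1 gene called) and -0.14 in the age difference at 38 h, and Etnppl did not pass against sham at 24 h (-1.51) or 38 h (-1.43). Leaving out old sham 24 h replicate 1 as well kept those 38 h values and Axin2 at 0.10, and gave Axin2 0.065 at 24 h against sham and 0.034 over the times, Oat 0.13 over the times, 2 pericentral genes called at 24 h against sham with a median of -0.90, and age difference medians of -0.98 at 24 h and -0.32 over the times.

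Leaving out 1 array at a time, the median ranged from -1.61 to -0.96 in old PH at 24 h against sham (1 to 6 genes called), -0.98 to -0.17 at 38 h (0 to 2), -1.33 to -0.91 at 24 h against 0 h (3 to 4), -0.88 to -0.30 at 38 h against 0 h (0 to 4), and in the age difference -1.92 to -1.26 at 24 h, -0.96 to -0.14 at 38 h and -0.87 to -0.55 over the times. From 0 to 1 gene was called in young PH at 38 h and 48 h against 0 h. Etnppl ranged from -2.91 to -0.96 in old PH at 24 h against sham, -2.59 to -1.43 at 38 h, -1.92 to -1.32 in young PH at 38 h against 0 h, -2.51 to -1.52 at 48 h and -1.37 to -0.72 in old shams against 0 h. Oat ranged from -1.08 to 0.35 in old PH at 38 h against sham, -0.85 to 0.58 against 0 h and -0.63 to -0.15 against sham over the times. Rhbg ranged from -0.46 to 0.13 in old PH at 38 h against sham and from -0.099 to 0.54 in the age difference at 48 h. Axin2 ranged from -0.12 to 0.24 in young PH at 38 h, -0.076 to 0.28 at 48 h and -0.072 to 0.29 in young shams, all against 0 h, from -0.19 to 0.17 between untreated old and young livers, from -0.28 to 0.095 in old PH at 24 h against 0 h, and against sham from -0.81 to -0.13 at 24 h and -0.32 to -0.090 over the times.

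Counts of genes called, or of probe sets where all probe sets were tested, moved by more than 1.5 times in every contrast under at least 1 alternative. With sham as the control they ranged from 112 to 1712 in young PH at 24 h, 426 to 3366 at 38 h and 2918 to 6549 at 48 h, and from 1 to 6222, 0 to 2436 and 2126 to 6525 in old PH. Over the times they ranged from 3976 to 10511 in young and 3311 to 10110 in old livers. With 0 h as the control they ranged from 2577 to 6840, 4182 to 13718 and 3929 to 11567 in young and 874 to 9152, 1010 to 16703 and 2494 to 6372 in old livers. They were 3996 to 14524 in young and 3022 to 12785 in old shams, 24 to 143 between untreated ages, and 0 to 1987, 0 to 209, 0 to 3 and 0 to 129 in the age difference at 24, 38 and 48 h and over the times. The ranges that reach 0 or 1 in old PH against sham come from the fit on only the arrays compared. The upper ends with 0 h as the control, in the shams, over the times against sham and in young PH at 48 h against sham come from the test of all probe sets. Probe sets outnumber genes, so those counts are not on the scale of the main fit, and shares were not compared. In young PH at 48 h against 0 h that test alone passed 1.5 times (11567 probe sets, beside 5073 genes in the main fit).

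Arrays have no depth in reads, and groups of 1 to 3 arrays limit what can be resolved.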
